A study of Mus musculus with 18 samples.

Results

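This report describes 9 genes that write, copy, read or remove DNA methylation, *Dnmt1*, *Dnmt3a*, *Uhrf1*, *Uhrf2*, *Tet1*, *Tet2*, *Tet3*, *Tdg* and *Mbd2*, in splenic B cells that lack ZBTB24 and in control B cells during LPS stimulation. The members were chosen by name and found by NCBI gene ID, and all 9 were among the 16545 genes of the table. The data were 18 RNA-seq libraries from C57BL/6 mice, with 3 libraries in each of 6 groups and 1 mouse per replicate. Control (CON) mice were Zbtb24 +/+ littermates and *Zbtb24* B-CKO (B-CKO) mice were Zbtb24 loxp/loxp. Both genotypes carried a Cre allele that is active in B cells, so that exon 2 of *Zbtb24* was removed in B cells of B-CKO mice. B cells were sorted from spleens and sequenced at 0 h (D0), or after 24 h (D1) or 48 h (D2) with LPS, the endotoxin of Gram-negative bacteria, which B cells sense with the receptor TLR4. Ages were not given for these libraries. No library of cells cultured without LPS was analysed here, so that LPS and time in culture cannot be told apart. Levels are given in FPKM, a count of fragments scaled by transcript length and by library size, so that they may be compared between genes.

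DNA methylation is copied at each replication. UHRF1 binds hemimethylated CpG behind the replication fork and brings in DNMT1, which methylates the new strand. DNMT3A methylates sites that carried no methyl group. TET1, TET2 and TET3 oxidise the methyl group, and TDG, a glycosylase of base excision repair, cuts out the oxidised base, while oxidised bases that are not copied are also lost through cell division. MBD2 binds methylated CpG and brings in the NuRD repressor complex. ZBTB24, CDCA7, HELLS and DNMT3B are mutated in ICF syndrome, an immunodeficiency with hypomethylated pericentromeric repeats, and mutated UHRF1 has been linked to an atypical form. The question addressed here is whether the core methylation genes keep their levels in B cells without ZBTB24 as the cells leave rest and start to divide.

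The members' start sites were read to see which share letters of known factors. Promoter windows from RefSeq (GRCm38.p6, from 250 bases before to 50 bases after a start site) were found for 8 members, in 13 windows, and no window was found for *Mbd2*. The letters bound by E2F factors, which drive genes of S phase, were searched on both strands as TTTCCCGC, TTTCGCGC, TTTGCCGC and TTTGGCGC, and are held by 2.28% of 32544 windows and by 3.51% of the 16445 windows of genes in the table. The letters CAGGACCT, a core of the motif bound by ZBTB24, are held by 1.97% and 1.79% of these windows. Stretches are shown for the members that rose most within 24 h, *Uhrf1* and *Dnmt1*, for *Uhrf2* and *Tet3*, which did not rise, and for *Cdca7*, a known ZBTB24 target that is no member. Each is the longest stretch before the start site that lies in no annotated exon, 5′ to 3′ on the gene's strand, with E2F letters and CAGGACCT in capitals on either strand. *Dnmt1* has 3 windows and *Uhrf1* has 2, and the window shown was chosen because it is the one with E2F letters, which the others do not hold.
Uhrf1, chr17:56304063-56304312, + strand: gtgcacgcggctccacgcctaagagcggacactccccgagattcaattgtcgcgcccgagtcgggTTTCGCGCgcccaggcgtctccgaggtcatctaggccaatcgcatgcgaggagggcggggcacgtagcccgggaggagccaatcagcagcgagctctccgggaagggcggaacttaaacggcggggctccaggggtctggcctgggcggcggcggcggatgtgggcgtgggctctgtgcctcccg
Dnmt1, chr9:20952624-20952707, - strand: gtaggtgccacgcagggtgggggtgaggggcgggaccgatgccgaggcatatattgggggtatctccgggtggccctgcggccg
Uhrf2, chr19:30030263-30030512, + strand: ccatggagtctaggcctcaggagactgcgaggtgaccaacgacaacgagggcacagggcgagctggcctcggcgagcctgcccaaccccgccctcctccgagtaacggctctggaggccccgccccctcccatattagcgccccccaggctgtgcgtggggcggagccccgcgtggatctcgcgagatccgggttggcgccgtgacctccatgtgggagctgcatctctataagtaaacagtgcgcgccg
Tet3, chr6:83441679-83441928, - strand: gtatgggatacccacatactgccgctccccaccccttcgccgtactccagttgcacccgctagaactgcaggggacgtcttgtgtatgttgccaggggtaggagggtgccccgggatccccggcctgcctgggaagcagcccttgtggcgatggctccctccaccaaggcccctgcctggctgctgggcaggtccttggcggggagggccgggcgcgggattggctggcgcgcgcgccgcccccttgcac
Cdca7, chr2:72475969-72476158, + strand: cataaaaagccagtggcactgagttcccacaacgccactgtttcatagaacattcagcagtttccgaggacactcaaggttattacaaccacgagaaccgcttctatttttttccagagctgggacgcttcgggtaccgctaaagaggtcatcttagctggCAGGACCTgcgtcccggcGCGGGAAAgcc

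In the *Uhrf1* stretch TTTCGCGC begins at position -185, counted from the start site. The same window of *Dnmt1* holds E2F letters at 2 places outside the stretch shown, at position -219, where another *Dnmt1* transcript has an exon, and at position 33. The other 11 of the 13 member windows held no E2F letters, and 0 of 13 held CAGGACCT, whereas the *Cdca7* stretch holds both, E2F letters on the opposite strand at position -71 and CAGGACCT at position -89. These matches are a description of letters in these windows. The members' windows also differed in CpG, the dinucleotide that their products act on. CpG counts per 300 bases ranged from 2 in the first window of *Dnmt1* to 57 in that of *Tet2*, and 10 of 13 windows had at least the 17 of the median window of genes in the table.

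The libraries were checked first. *Zbtb24*, the deleted gene, averaged 45.4 ± 7.24 FPKM in the controls against 12.5 ± 1.9 FPKM in the B-CKO libraries at 0 h (SD, n = 3), 17.6 ± 1.66 against 10.9 ± 0.677 FPKM after 24 h, and 15.2 ± 1.85 against 10.4 ± 1.07 FPKM after 48 h. Every B-CKO library lay below every control library of its time, although the adjusted p of limma was 0.12, 0.0586 and 0.267 at the 3 times, and fragments of the exons that were not removed still count. All 8 B cell markers were above 1 FPKM on average in every group. Their summed level was 4369 to 5892 FPKM at 0 h and 2157 to 2818 FPKM in culture, and at 24 h it was 2157 to 2244 FPKM in B-CKO against 2485 to 2672 FPKM in control libraries. That of 5 plasma cell markers was 242.4 to 420.1 FPKM at 0 h, 134.6 to 153.9 FPKM at 24 h and 193.9 to 315.6 FPKM at 48 h. The summed level of 9 T cell markers was 9.18 to 18.03 FPKM at 0 h and 1.42 to 3.45 FPKM in culture, that of 6 erythroid markers 7.07 to 46.86 and 0.13 to 4.09 FPKM, and that of 4 NK cell markers 2.78 to 4.22 and 0 to 0.24 FPKM. The B cell, T cell, erythroid and NK cell sums of every library in culture were below those of every library at 0 h, and those of 7 myeloid markers overlapped, at 3.92 to 9.94 and 3.17 to 6.89 FPKM. The part of these markers in the members' changes from 0 h, or in their differences between the genotypes at 24 h, was not tested. In bulk RNA, fewer cells of a type and less RNA per cell cannot be told apart. Replicates at 0 h were more spread than later, with a median SD of 0.17 in control and 0.16 in B-CKO cells on the log2 scale against 0.056 and 0.054 at 24 h.

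The first comparison was LPS-stimulated against resting cells of each genotype. Within 24 h, 8 of the 9 members changed in control cells and the same number in B-CKO cells, 3 rising and 5 falling in each. *Uhrf1* rose about 22.3-fold and *Dnmt1* 4.03-fold in control cells, *Tdg* 1.89-fold, while *Tet1*, *Tet2*, *Tet3*, *Uhrf2* and *Mbd2* fell and *Dnmt3a* did not pass the test. Such a share is less unusual than it looks, since 57.4% of all genes passed the same threshold in control cells and 59.8% in B-CKO cells (limma, Benjamini-Hochberg adjusted p under 0.05). Log2 fold changes below are on the scale of log2(FPKM + 1), with the standard error, and understate the change of low genes.

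**Figure D1:**
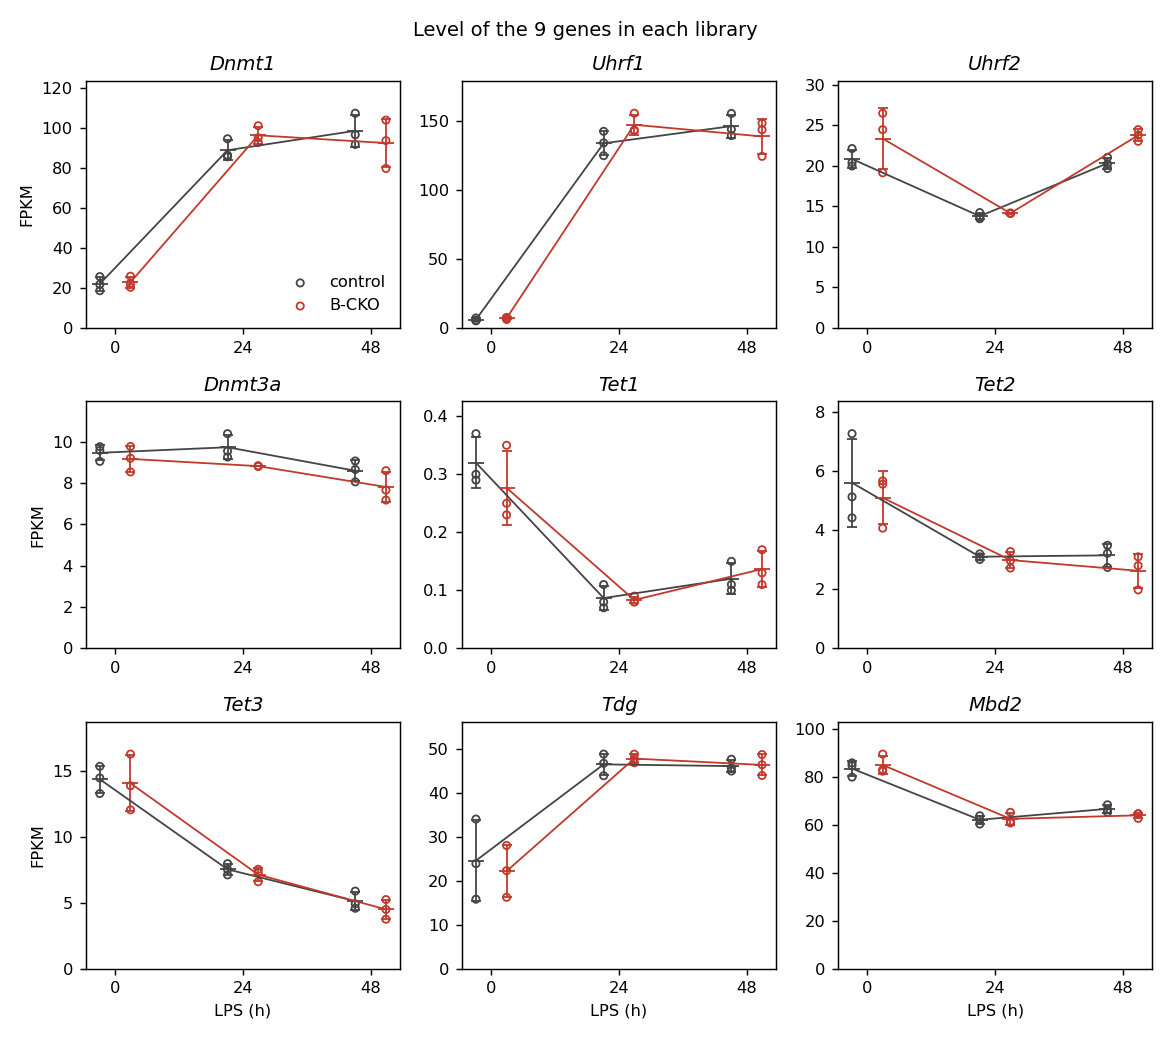
FPKM (vertical axes, from 0) of the 9 genes at 0 h, 24 h and 48 h of LPS in control (grey) and B-CKO (red) cells; circles are libraries, the horizontal ticks with whiskers are means ± SD (n = 3), and lines join the means. *Uhrf1*, *Dnmt1* and *Tdg* are higher at 24 h than at 0 h in every library, the 3 *Tet* genes, *Uhrf2* and *Mbd2* lower, and *Dnmt3a* stays between 7.17 and 10.38 FPKM throughout.

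*Uhrf1* (gene ID 18140, chr17:56303337-56323486, GRCm38) was the member that changed most. Its level in control cells was 5.71, 7.21 and 5.11 FPKM at 0 h in replicates 1 to 3, 124.85, 134.13 and 142.48 FPKM at 24 h, and 143.94, 155.48 and 139.37 FPKM at 48 h. In B-CKO cells it was 7.36, 7.57 and 6.14 FPKM, then 143.38, 142.78 and 155.61 FPKM, and then 143.64, 148.35 and 124.35 FPKM. All libraries at 0 h were thus low and all later libraries high, with no overlap in either genotype. The log2 rise to 24 h was 4.27 ± 0.12 in control (SE, adjusted p = 5.64e-06, limma) and 4.21 ± 0.086 in B-CKO cells (adjusted p = 2.24e-06). From 24 h to 48 h the levels overlapped, with log2 changes of 0.13 (adjusted p = 0.136) in control and -0.088 (adjusted p = 0.385) in B-CKO cells.

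*Dnmt1* (gene ID 13433, chr9:20907206-20959888), the maintenance methyltransferase, was well above *Uhrf1* at rest and below it in culture. Control cells held 25.70, 21.80 and 18.66 FPKM at 0 h, 86.50, 85.69 and 94.71 FPKM at 24 h and 91.85, 107.49 and 96.73 FPKM at 48 h. B-CKO cells held 25.90, 22.38 and 20.35 FPKM, then 92.88, 95.19 and 101.24 FPKM, and then 93.80, 104.04 and 79.85 FPKM. As for *Uhrf1*, rest and culture were fully apart. The log2 rise to 24 h was 1.97 ± 0.118 in control (adjusted p = 3.16e-05, limma) and 2.03 ± 0.093 in B-CKO cells (adjusted p = 8.48e-06), and the changes from 24 h to 48 h were 0.15 (adjusted p = 0.121, and 0.0384 with the replicate block and genes of at least 1 FPKM) and -0.066 (adjusted p = 0.617).

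*Uhrf2* (gene ID 109113, chr19:30030430-30093726), the paralogue of *Uhrf1* that binds hydroxymethylated DNA and is not known to replace UHRF1 in maintenance, ran the other way. In control cells it was at 22.11, 20.40 and 19.96 FPKM at 0 h, 13.64, 14.22 and 13.46 FPKM at 24 h, and 19.64, 20.22 and 21.02 FPKM at 48 h. In B-CKO cells it was at 24.44, 26.46 and 19.12 FPKM, then 14.10, 14.17 and 14.13 FPKM, and then 23.77, 24.44 and 23.00 FPKM. It fell to 24 h by 0.56 ± 0.068 (adjusted p = 0.00059, limma) in control and by 0.67 ± 0.119 (adjusted p = 0.00289) in B-CKO cells. Against the same 24 h libraries it then rose by 0.53 ± 0.042 (adjusted p = 0.000139) and 0.71 ± 0.039 (adjusted p = 2.57e-05), back to levels that overlapped those at rest. The paralogues thus exchanged their order. Within a library the level of *Uhrf1* over that of *Uhrf2* was 0.256 to 0.353 in control and 0.286 to 0.321 in B-CKO cells at 0 h, and 9.72 ± 0.759 and 10.4 ± 0.516 at 24 h (SD, n = 3). At 48 h the ratio was 6.63 to 7.69 in control and 5.41 to 6.07 in B-CKO cells. This ratio was chosen after its values were seen and was not tested.

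**Figure D2:**
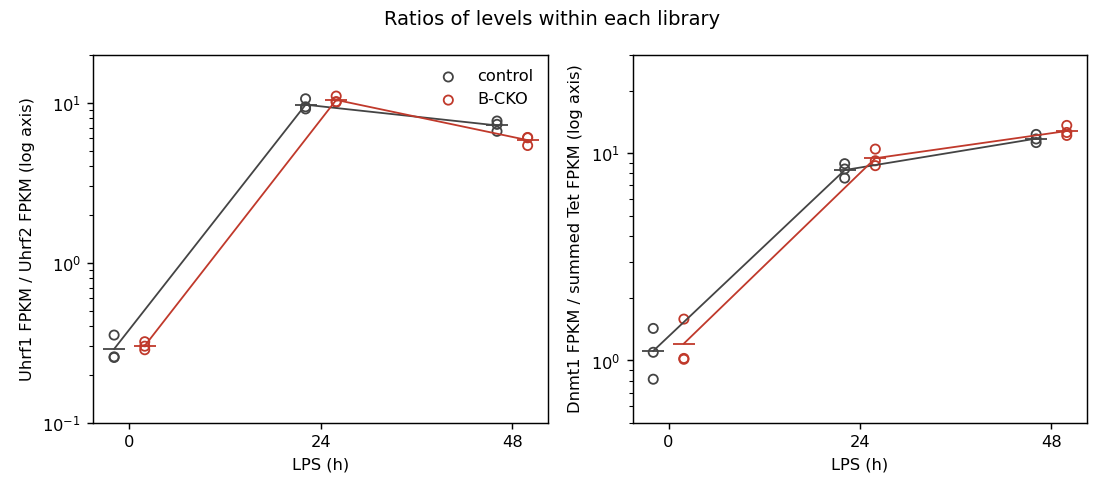
Ratio of FPKM within each library (log axes) at 0 h, 24 h and 48 h of LPS, *Uhrf1* over *Uhrf2* on the left and *Dnmt1* over the summed *Tet1*, *Tet2* and *Tet3* on the right; circles are libraries and horizontal ticks, joined by lines, are means of 3. Both ratios are low in all 6 libraries at 0 h, with means of 0.289 and 1.11 in control cells, and high in all libraries in culture.

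*Dnmt3a* (gene ID 13435, chr12:3801559-3914443), the de novo methyltransferase, was the steadiest member. It was at 9.04, 9.57 and 9.75 FPKM at 0 h, 9.25, 10.38 and 9.54 FPKM at 24 h and 8.65, 9.06 and 8.05 FPKM at 48 h in control cells. The B-CKO values were 8.53, 9.76 and 9.19 FPKM, then 8.80, 8.80 and 8.83 FPKM, and then 7.65, 8.59 and 7.17 FPKM. The log2 change to 24 h was 0.036 ± 0.081 (95% interval -0.16 to 0.23, adjusted p = 0.726, limma) in control and -0.049 ± 0.077 (-0.24 to 0.14, adjusted p = 0.619) in B-CKO cells. From 24 h to 48 h both genotypes had values of -0.16 that did not pass the threshold (adjusted p = 0.0834 and 0.113), although the groups did not overlap, and in control cells the change passed it with only genes of at least 1 FPKM (adjusted p = 0.0423, and 0.0348 with the replicate block as well) and after rescaling to TPM (adjusted p = 0.0458). In B-CKO cells it passed in 1 of the 6 fits that left out a library (adjusted p = 0.0194, limma). *Dnmt3b*, the other active de novo enzyme and itself an ICF gene, was at 3.12 ± 0.267 FPKM at 0 h in control cells, and the cofactor *Dnmt3l* was at 0.16 ± 0.106 FPKM, near the floor of the table. Of these 2 genes, 0 passed the test from 0 h to 24 h in control cells and 1, *Dnmt3b*, rose in B-CKO cells, to 4.10 ± 0.301 FPKM (log2 0.30 ± 0.091, adjusted p = 0.0287, against 0.22 ± 0.095, adjusted p = 0.0942, in control cells). That count of 1 was 0 without any 1 of the B-CKO libraries at 24 h, with the replicate block and as TPM, and in control cells it was 1 without replicate 1 at 0 h and with median ratio scaling.

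The TET genes fell together but differed in level and timing. *Tet3* (gene ID 194388, chr6:83362373-83457208) was the highest of them, at 13.29, 14.47 and 15.35 FPKM at 0 h, 7.12, 7.97 and 7.53 FPKM at 24 h and 4.59, 5.89 and 4.92 FPKM at 48 h in control cells. In B-CKO cells it was at 12.05, 16.28 and 13.88 FPKM, then 7.28, 7.54 and 6.60 FPKM, and then 4.5, 5.25 and 3.76 FPKM. *Tet3* was the only member that fell at both steps in both genotypes, by 0.85 ± 0.087 (adjusted p = 0.000287, limma) and then by 0.48 ± 0.091 (adjusted p = 0.00493) in control cells, and by 0.88 ± 0.12 (adjusted p = 0.000845) and 0.57 ± 0.11 (adjusted p = 0.00512) in B-CKO cells. At 48 h it stood at 0.357 of its resting mean in control and at 0.32 in B-CKO cells.

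*Tet2* (gene ID 214133, chr3:133463677-133545136), which is often mutated in blood cancers, was at 4.42, 5.13 and 7.27 FPKM at 0 h, 3.10, 3.20 and 3.01 FPKM at 24 h and 2.74, 3.49 and 3.22 FPKM at 48 h in control cells. The B-CKO libraries held 4.07, 5.56 and 5.67 FPKM, then 2.72, 3.28 and 2.97 FPKM, and then 2.80, 3.10 and 1.98 FPKM. Rest and culture did not overlap, and the spread was widest at rest. The fall to 24 h was 0.66 ± 0.168 on the log2 scale in control (adjusted p = 0.0148, limma) and 0.60 ± 0.137 in B-CKO cells (adjusted p = 0.00876). In control cells the call was lost without replicate 3 at 24 h (adjusted p = 0.053). From 24 h to 48 h the log2 changes were 0.012 and -0.15, neither past the threshold (adjusted p = 0.922 and 0.416).

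*Tet1* (gene ID 52463, chr10:62804570-62887469) was the lowest member in every group. It was at 0.29, 0.30 and 0.37 FPKM at 0 h, 0.07, 0.11 and 0.08 FPKM at 24 h and 0.11, 0.15 and 0.10 FPKM at 48 h in control cells. In B-CKO libraries the values were 0.23, 0.25 and 0.35 FPKM, then 0.08, 0.09 and 0.08 FPKM, and then 0.13, 0.17 and 0.11 FPKM. The fall to 24 h was 0.28 ± 0.032 (adjusted p = 0.000499, limma) in control and 0.24 ± 0.039 (adjusted p = 0.002) in B-CKO cells on the scale with a pseudocount of 1, while the means fell to 0.271 and 0.301 of their resting values. With 2 decimals and values near 0.1 FPKM these ratios are coarse. The summed level of the 3 genes was 20.3 ± 2.52 FPKM at rest, 10.7 ± 0.504 FPKM at 24 h and 8.4 ± 1.06 FPKM at 48 h in control libraries, of which *Tet3* made up 71.1 ± 3.8%, 70.3 ± 0.924% and 61.1 ± 1.18% (SD, n = 3). *Dnmt1* over this sum went from 1.11 ± 0.308 at rest to 8.31 ± 0.666 after 24 h and 11.8 ± 0.535 after 48 h in control cells, and from 1.21 ± 0.327 to 9.48 ± 0.912 and 12.8 ± 0.741 in B-CKO cells.

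*Tdg* (gene ID 21665, chr10:82629814-82650799) was the third member to rise, so that the glycosylase and the TET enzymes that make its substrate moved apart. It was at 15.80, 23.88 and 34.00 FPKM at 0 h, 43.85, 46.67 and 48.76 FPKM at 24 h and 45.60, 47.59 and 44.91 FPKM at 48 h in control cells. The B-CKO libraries had 16.24, 22.28 and 28.01 FPKM, then 46.80, 47.68 and 48.74 FPKM, and then 46.34, 48.66 and 43.90 FPKM. At rest the libraries of both genotypes were ordered by replicate number in the same way, and libraries with the same number deviated together at 0 h across the 9996 genes compared. The rise to 24 h was 0.95 ± 0.253 (adjusted p = 0.0177, limma) in control and 1.10 ± 0.18 (adjusted p = 0.00196) in B-CKO cells. In control cells the call was lost without replicate 2 at 0 h (adjusted p = 0.0562), replicate 2 at 24 h (adjusted p = 0.0559) or replicate 3 at 24 h (adjusted p = 0.0599). The annotation holds a processed pseudogene of *Tdg* and an opposite-strand gene, *Glt8d2*, that shares 6.83% of its exon bases, and the sources used here do not say how such fragments were assigned, so that its level is less certain. The same holds for *Dnmt3a*, which has a processed pseudogene and an antisense gene over 0.799% of its exon bases, and for *Tet2*, with an antisense gene over 0.255%.

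*Mbd2* (gene ID 17191, chromosome 18), the reader, was the highest member at rest. It was at 84.63, 85.80 and 79.88 FPKM at 0 h, 60.32, 62.17 and 63.78 FPKM at 24 h and 68.34, 65.25 and 66.35 FPKM at 48 h in control cells. The levels in B-CKO cells were 89.47, 82.33 and 82.98 FPKM, then 60.79, 61.44 and 65.21 FPKM, and then 64.50, 62.67 and 64.68 FPKM. It fell to 24 h by 0.42 ± 0.052 (adjusted p = 0.000675, limma) in control and by 0.44 ± 0.056 (adjusted p = 0.000652) in B-CKO cells. In control cells it then rose by 0.10 ± 0.033 (adjusted p = 0.0453), a call that was lost under 7 of the 8 other settings and without control replicate 1 at 24 h (adjusted p = 0.136), replicate 2 at 24 h (0.107), replicate 1 at 48 h (0.114) or replicate 3 at 48 h (0.0868).

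**Figure D3:**
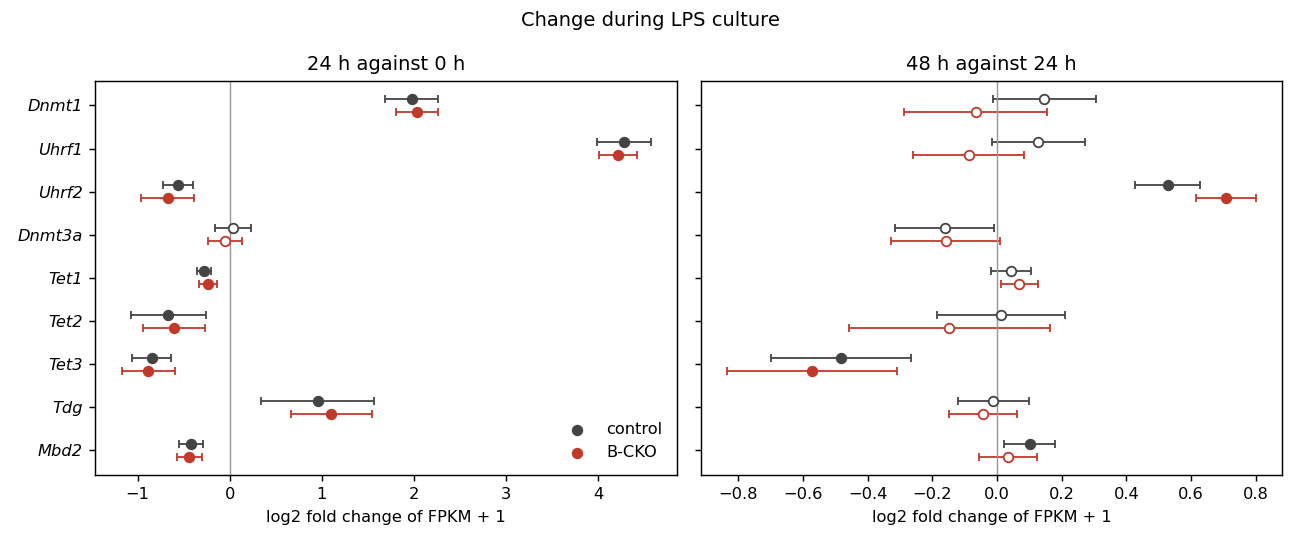
Log2 fold change of FPKM + 1 (horizontal axes, on different scales) of the 9 genes from 0 h to 24 h (left) and from 24 h to 48 h (right) of LPS in control (grey) and B-CKO (red) cells, with 95% intervals of limma (n = 3 per group); filled points passed an adjusted p of 0.05. The first step moves 8 of 9 genes in both genotypes, from -0.88 for *Tet3* to 4.27 for *Uhrf1*, while at the second step *Uhrf2* and *Tet3* passed in both genotypes and *Mbd2* in control cells.

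Between 24 h and 48 h, 3 of 9 members passed the test in control cells and 2 in B-CKO cells, against 44.9% and 45.7% of all genes. Between 0 h and 48 h, 7 members passed it in each genotype, against 56.8% and 57.6% of all genes, with *Uhrf2* and *Dnmt3a* as the others. For these the log2 values were -0.035 and -0.13 in control and 0.035 and -0.21 in B-CKO cells on the deposited scale. In control cells both passed the threshold as falls after rescaling to TPM, at -0.24 and -0.33. *Tet2* in control cells lost its 48 h call without replicate 1 (adjusted p = 0.0739) or replicate 3 (adjusted p = 0.0581) at 48 h. *Tdg* lost it without replicate 2 at 0 h (adjusted p = 0.0528) or without replicate 1 (0.0518) or 2 (0.0564) at 48 h. *Tet1* in B-CKO cells lost it without replicate 1 (adjusted p = 0.0509) or 3 (0.0572) at 48 h.

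The order of the members' levels changed with stimulation. At rest in control cells it ran *Mbd2*, *Tdg*, *Dnmt1*, *Uhrf2*, *Tet3*, *Dnmt3a*, *Uhrf1*, *Tet2* and *Tet1*, from 83.4 ± 3.14 to 0.32 ± 0.0436 FPKM (SD, n = 3), where the ranges of *Tdg*, *Dnmt1* and *Uhrf2* overlapped and so did those of *Uhrf1* and *Tet2*. At 24 h and 48 h it ran *Uhrf1*, *Dnmt1*, *Mbd2*, *Tdg*, *Uhrf2*, *Dnmt3a*, *Tet3*, *Tet2* and *Tet1* in both genotypes, and no neighbours in that order overlapped. Among genes above 0 FPKM, *Uhrf1* went from percentile 50.8 at rest to percentile 95.8 at 24 h in control cells, *Dnmt1* from 76.4 to 93.3, and *Tet3* from 67.2 to 53.3 and, at 48 h, to 47.6.

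The second comparison was B-CKO against control cells at each time, the comparison that asks about ZBTB24 itself. No member passed the test at any of the 3 times (0 of 9 at each, limma), where 0%, 0.0993% and 0.046% of all genes passed it. With an unadjusted p under 0.05 the counts were 0, 2 and 1 of 9 members, against 2%, 16.3% and 7.71% of all genes. The largest differences were 0.2 on the log2 scale in resting cells, 0.14 after 24 h and 0.22 after 48 h. The intervals set how far this goes. At 24 h every member's 95% interval lay within -0.25 and 0.27, while at 0 h the intervals reached from -0.85 to 0.63, both for *Tdg*. At 48 h they reached from -0.53 for *Tet2* to 0.32 for *Uhrf2*. Libraries with the same number paired the genotypes at 0 h, and with the replicate block the interval of *Tdg* was -0.31 to 0.089 and all 9 lay within -0.39 and 0.43, still with no member past the threshold (adjusted p from 0.866 to 0.952). Within these pairs *Dnmt1* and *Uhrf1* were higher and *Tet1* lower in B-CKO cells in 3 of 3, with blocked log2 differences of 0.055 ± 0.049, 0.20 ± 0.085 and -0.049 ± 0.031.

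**Figure D4:**
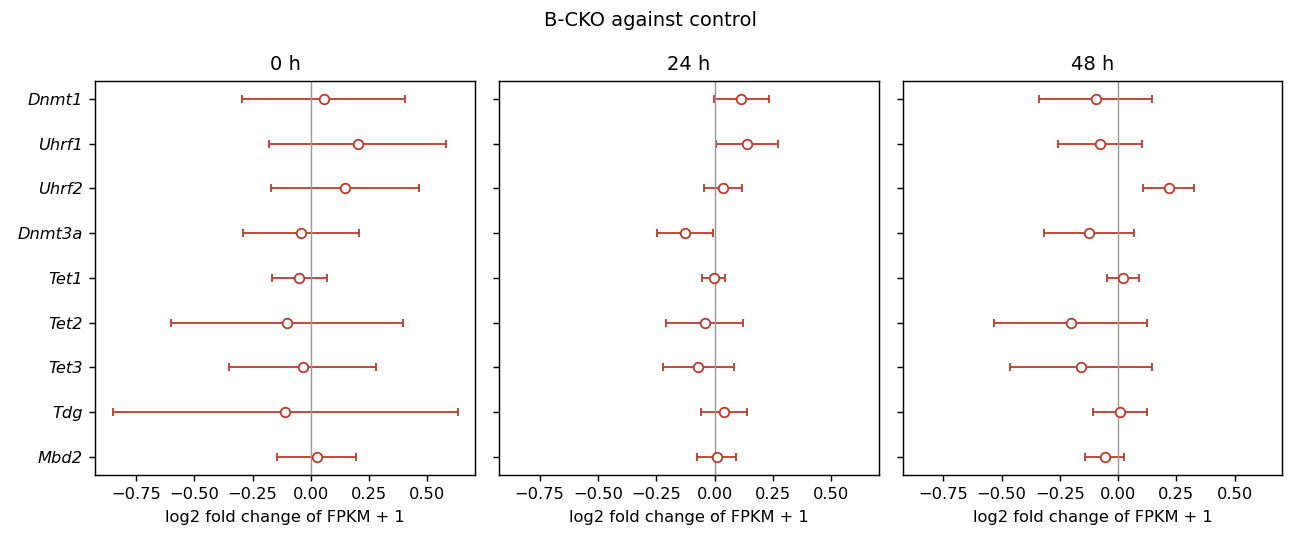
Log2 fold change of FPKM + 1 in B-CKO against control cells (horizontal axes, same scale) of the 9 genes at 0 h, 24 h and 48 h, with 95% intervals of limma (n = 3 per group); open points did not pass an adjusted p of 0.05. No point is filled, the intervals are widest at 0 h, and at 48 h *Uhrf2* lies at 0.22 with an interval from 0.11 to 0.32.

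The values nearest to a difference were these. At 48 h *Uhrf2* was at 23.00 to 24.44 FPKM in B-CKO and 19.64 to 21.02 FPKM in control cells, so that the groups did not overlap. Its log2 difference was 0.22 ± 0.046 (unadjusted p = 0.00219, adjusted p = 0.274 in limma, 0.1 to 0.824 over the alternatives). At 24 h *Uhrf1* was at 142.78 to 155.61 FPKM in B-CKO and 124.85 to 142.48 FPKM in control cells, which were apart by little. Its log2 difference was 0.14 ± 0.056 (adjusted p = 0.289), and it passed the threshold only with the replicate block and genes of at least 1 FPKM, a combination added after seeing the data (adjusted p = 0.0471). *Dnmt3a* at 24 h was at 8.80 to 8.83 FPKM in B-CKO and 9.25 to 10.38 FPKM in control cells, a log2 difference of -0.13 ± 0.05 (adjusted p = 0.278). *Mbd2* at 48 h, at 62.67 to 64.68 against 65.25 to 68.34 FPKM, differed by -0.059 ± 0.035 (adjusted p = 0.776). Groups that do not overlap were found for 0, 2 and 2 of 9 members at 0 h, 24 h and 48 h, against 3.87%, 20.1% and 11.1% of all genes.

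*Dnmt1* at 24 h had a log2 difference of 0.12 ± 0.049 (adjusted p = 0.309) with overlapping groups. Beside *Uhrf1* and *Dnmt1*, the S phase list of 15 genes had a median log2 difference of 0.17 at 24 h, with 0 genes past the adjusted threshold and 11 past an unadjusted p of 0.05, where the median of all genes was -0.0046, and at 48 h its median was -0.061. Its part in the members' values was not tested. *Tet2* and *Tet3* had log2 differences of -0.2 and -0.16 at 48 h with overlapping groups (adjusted p = 0.815 and 0.85). For *Tet1* the differences were -0.049, -0.0043 and 0.021 at the 3 times, and for *Tdg* -0.11, 0.041 and 0.0074.

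The difference between the genotypes in the change over time was tested as an interaction, from 0 h to 24 h, from 24 h to 48 h and from 0 h to 48 h. No member and none of all genes (0%) passed the threshold in limma at any of the 3, and with an unadjusted p under 0.05 the members numbered 0, 1 and 0 of 9 against 2.89%, 7.31% and 2.6% of all genes. The 1 was *Uhrf2*, whose rise from 24 h to 48 h was larger in B-CKO cells by 0.18 ± 0.051 (unadjusted p = 0.00498, adjusted p = 0.549). In the same step *Uhrf1* and *Dnmt1* had values of -0.22 ± 0.102 and -0.21 ± 0.125 (adjusted p = 0.692 and 0.763). The S phase list had a median of -0.21 in this step, with 0 of 15 genes past the adjusted threshold and 10 past an unadjusted p of 0.05, and its part in these values was not tested.

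The genes that work with the members were then counted in lists of related genes. Partners of maintenance methylation followed *Uhrf1* and *Dnmt1* upward. Of 9 partners, 6 rose and 2 fell within 24 h in control cells, and 6 rose and 1 fell in B-CKO cells (3 fell after rescaling to TPM, and 2 without B-CKO replicate 2 at 0 h), with list medians of 1.74 and 1.94 against -0.022 and -0.021 for all genes, of which 26.7% rose and 30.7% fell in control and 27.5% and 32.3% in B-CKO cells. The largest rises in control cells were those of *Cdca7*, the ICF gene that recruits HELLS, at 3.56 ± 0.142, and of *Hells*, the chromatin remodeller, from 4.12 ± 0.0764 to 55.7 ± 1.87 FPKM, at 3.47 ± 0.061 on the log2 scale. *Zbtb24* itself fell by 1.31 ± 0.135 and *Rb1*, the retinoblastoma protein that restrains E2F, by 0.41 ± 0.069 in control cells. *Zbtb24*, the deleted gene, is among the 9 partners. Its mean at 24 h was 0.387 of its resting mean in control and 0.873 in B-CKO cells. The part of the deletion in the counts of falls was not tested. *Pcna*, the clamp of the replication fork, reached 518.1 ± 5.54 FPKM and *Lig1*, the ligase whose methylated form binds UHRF1, 96.2 ± 1.93 FPKM at 24 h in control cells.

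Among these partners *Cdca7* was the only one that passed the genotype test. Its mean was 6.19 ± 1.32 FPKM in the controls against 0.933 ± 0.115 FPKM in the B-CKO libraries at 0 h, 82.6 ± 2.77 against 20.9 ± 1.42 FPKM after 24 h, and 57.0 ± 7.53 against 13.3 ± 1.78 FPKM after 48 h (SD, n = 3). The log2 difference was -1.88 (adjusted p = 0.12), -1.94 (adjusted p = 3.56e-05) and -2.02 (adjusted p = 0.00589, and 0.0561 to 0.0833 without B-CKO replicate 1 or 2 or control replicate 1 at 48 h). Its log2 rise within 24 h of LPS was 3.50 ± 0.096 in B-CKO and 3.56 ± 0.142 in control cells. The pseudocount of 1 lowers the B-CKO rise more, as that mean was 0.933 FPKM at 0 h. These 2 rises are thus not compared. *Hells* was at 63.9 ± 2.93 FPKM in B-CKO and 55.7 ± 1.87 FPKM in control cells at 24 h (adjusted p = 0.111), and *Cdca7l*, the paralogue of *Cdca7*, at 26.4 ± 0.527 and 20.6 ± 1.27 FPKM (adjusted p = 0.0586), neither past the threshold, and both past it with only genes of at least 1 FPKM (adjusted p = 0.0383 and 0.00772).

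Base excision repair, which finishes the work of TDG, was split. Of 11 genes, 5 rose and 2 fell in both genotypes within 24 h. In control cells *Ung*, the uracil glycosylase, rose by 2.21 ± 0.187 and *Apex1*, the endonuclease that cuts abasic sites, by 2.01 ± 0.067, while the glycosylases *Neil1* and *Mbd4* fell by 3.23 ± 0.479 and 0.63 ± 0.173. *Mbd4* lost its call without control replicate 2 at 0 h (adjusted p = 0.0524), replicate 2 at 24 h (0.073) or replicate 3 at 24 h (0.0611). Of 8 genes of deaminases, GADD45 proteins and OGT, which have been linked to active demethylation, 2 rose and 3 fell in control and 2 rose and 4 fell in B-CKO cells. *Gadd45a* fell from 58.7 ± 8.09 to 4.5 ± 0.302 FPKM and *Gadd45g* by 3.02 ± 0.317 in control cells. *Gadd45b*, a stress-response gene, rose by 0.42 ± 0.112 in control cells, a call that was lost without control replicate 1 (adjusted p = 0.0554), 2 (0.0604) or 3 (0.0599) at 24 h and after rescaling to TPM (0.0726). Without any 1 of these libraries 0 genes of the list rose, and 1 rose as TPM.

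Among other listed readers falls outnumbered rises. They did so among all genes too, of which 30.7% fell and 26.7% rose in control and 32.3% and 27.5% in B-CKO cells. The difference from all genes was not tested. Of 8 other methyl-CpG binding proteins, 1 rose and 4 fell in control and 1 rose and 6 fell in B-CKO cells. *Mbd3*, the paralogue of *Mbd2* in NuRD, was the one that rose, from 62.3 ± 16.8 to 134.0 ± 2.74 FPKM (log2 1.13 ± 0.2) in control cells, and *Zbtb4* and *Mbd6* fell by 1.62 ± 0.132 and 1.29 ± 0.14. Of 7 measured CXXC proteins, which bind unmethylated CpG, 1 rose and 5 fell in both genotypes. *Kdm2b* rose by 0.62 ± 0.068, and *Cxxc5* and *Kmt2a* fell by 1.95 ± 0.137 and 1.14 ± 0.091 in control cells. All 12 subunits of NuRD passed the test, 9 rising and 3 falling, in both genotypes. In control cells the largest rises were *Rbbp7* (2.01 ± 0.066) and *Hdac2* (1.55 ± 0.176), and the largest falls *Mta3* (1.01 ± 0.057) and *Chd3* (0.90 ± 0.159).

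**Figure D5:**
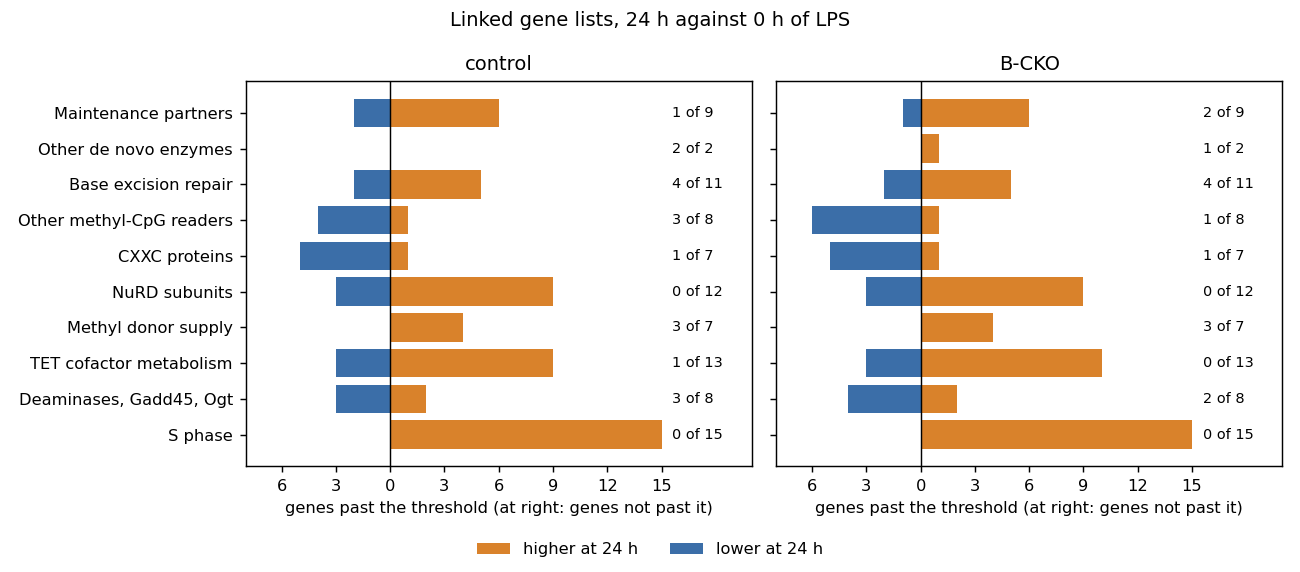
Number of genes of each list that passed an adjusted p of 0.05 in limma from 0 h to 24 h of LPS (horizontal axes), rising to the right in orange and falling to the left in blue, in control and B-CKO cells, with the number not past it of those tested at the right. All 15 S phase genes rise in both genotypes. More CXXC proteins and listed readers fall than rise. Of all genes 30.7% fall and 26.7% rise in control and 32.3% and 27.5% in B-CKO cells, and the difference was not tested.

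The supply of methyl groups and of TET cofactors was also listed. Of 7 genes of S-adenosylmethionine supply and recycling, 4 rose and 0 fell in both genotypes, with 1 falling in B-CKO cells without replicate 1 at 0 h. *Mat2a*, which makes the methyl donor, rose from 56.3 ± 7.37 to 173.6 ± 6.44 FPKM and was at 90.4 ± 8.97 FPKM at 48 h, and *Ahcy*, which removes the inhibitory product of methylation, rose from 14.9 ± 2.07 to 78.3 ± 5.66 FPKM in control cells. Of 13 genes for 2-oxoglutarate, ascorbate transport and the hydroxyglutarate that inhibits TET enzymes, 9 rose and 3 fell in control and 10 rose and 3 fell in B-CKO cells, with 1 instead of 3 falling in control cells without replicate 1 or 3 at 24 h. *Idh3a* rose by 1.74 ± 0.07, and *Slc2a1* and *D2hgdh* fell by 1.03 ± 0.27 and 0.98 ± 0.152 in control cells. *Slc2a1* lost its call without control replicate 1 or 3 at 24 h or replicate 2 at 0 h (adjusted p from 0.0523 to 0.0566). All 15 S phase genes rose in both genotypes, with medians of 2.88 and 2.95, and the largest in control cells were *Rrm2* at 4.55 ± 0.147 and *Gins2* at 3.74 ± 0.08. Of 10 genes of G2 and mitosis 9 rose in both, with *Top2a* at 3.73 ± 0.202 and *Ccnb1* at 3.62 ± 0.205 in control cells. The other, *Cenpa*, a histone of the centromere named after its values were seen, fell by 0.98 ± 0.311 in B-CKO cells (adjusted p = 0.0324, limma) and had a value of -1.06 ± 0.439 in control cells (adjusted p = 0.0822). Its call in B-CKO cells was lost without replicate 1, 2 or 3 at 24 h or replicate 2 at 0 h, and it was called in control cells with genes of at least 1 FPKM with or without the replicate block, in 1 fit of all 18 libraries and without replicate 1 at 0 h.

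The genes with the pattern most like each member were found among 9988 genes as those with the smallest root mean square difference of centred log2 values over the 18 libraries. For *Uhrf1*, whose own values had a root mean square of 2.01 about their mean, they included *Mybl2* (0.13) and *Mcm10* (0.23). For *Dnmt1* (0.96) they were *Cbx5* (0.094), BC055324 (0.098) and *Rfc5* (0.12), and for *Tet3* (0.59) they included *Herc2* (0.084) and *Tgfbr1* (0.091). For *Uhrf2* (0.31) they were *Stat4* (0.1), *Tmem106b* (0.11) and *Oxr1* (0.11), and for *Tdg* (0.53) *Prpf38a* (0.11), *Hnrnpa1* (0.14) and *Mrpl54* (0.15). For *Tet2* (0.36) they were *Ythdf3* (0.085), *Ddx6* (0.099) and *Sf3b1* (0.11), and for *Mbd2* (0.19) *Patz1* (0.06), *Spop* (0.066) and *Etnk1* (0.07). *Dnmt3a* and *Tet1* had the smallest values, 0.11 and 0.12, and their nearest genes (*Arih1*, *Ddx46* and *Ythdc2*, and *Dcaf8*, *Tbc1d1* and *Atg7*) lay at 0.059 to 0.075. The means of *Tet1* fell by 24 h to 0.271 and 0.301 of rest in control and B-CKO cells, which the pseudocount of 1 compresses. Its nearest genes thus share its values on this scale only.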

How the data were processed

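RNA was sequenced from sorted splenic B cells of control and B-CKO mice at 3 times. The authors aligned reads to mm10 with Bowtie2 and deposited FPKM with 2 decimals, made with Cufflinks and RSEM per their methods, for 16545 genes, of which 16512 matched a symbol by gene ID. BWA and DESeq2 are named in the submitters' processing notes, with no version given in the sources used here. No counts were used, so depth is not known, and only 57.4% of 54 low genes gave whole steps of a read (tolerance 0.15), so that no reads were recovered. FPKM summed to 453150 to 472680 at 0 h and 515200 to 563460 later. Values were tested as log2(FPKM + 1) with limma 3.58.1 (lmFit, eBayes with trend, R 4.3.3, two-sided) over genes above 0 in any compared library, 6 libraries per pair of groups and 12 per interaction, with Benjamini-Hochberg adjustment over all genes and a threshold of 0.05. P-values measure the spread between 3 mice per group, and no source states whether a replicate number is the same mouse at each time. The fitting was also run on simulated data, drawn without pairing by replicate number, and the outcome is not reported here.

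The members and gene lists were chosen with earlier results of these data known. Named genes are the 9 members, *Zbtb24*, per list up to 2 of the largest called rises and falls within 24 h in control cells, and the 3 genes nearest each member. Some genes that this rule names are not reported here. Others (*Cdca7* and its paralogue, *Pcna*, *Lig1*, *Dnmt3b*, *Dnmt3l* and *Idh1*) were named after their values were seen. Alternatives were a pseudocount of 0.1, a filter on mean level (1 FPKM or more), rescaling to TPM, median ratio scaling, the replicate number as a block, 1 fit of all 18 libraries, the cutoff of the study, leaving out each library, and, added after seeing the data, the block with genes of at least 1 FPKM. Pairing was checked by correlating deviations from group means over 9996 genes. Same-numbered libraries of both genotypes at 0 h correlated at 0.854, 0.468 and 0.789, and those of B-CKO cells at 24 h and 48 h at 0.126, 0.183 and 0.117, and in the other comparisons at least 1 pair was under 0.1. Positions follow RefSeq for GRCm38.p6 and exon overlaps GENCODE.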

Additional observations from a re-analysis of the deposited data

How the results depend on the processing

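The count of members past the threshold kept within 1.5 times its value in all 90 fits that left out 1 library and in 95 of 96 other fits, the exception being 1 member (*Uhrf1*) instead of 0 for B-CKO against control at 24 h with the replicate block and genes of at least 1 FPKM, where 704 of all genes passed instead of 15. No value of a called member turned sign under any setting. After rescaling to TPM the log2 change turned sign for *Mbd2* (-0.0039, B-CKO against control at 24 h), *Tdg* (-0.016, B-CKO against control at 48 h), *Dnmt3a* (-0.12, 24 h against 0 h in control cells), *Tet2* (-0.023, 48 h against 24 h in control cells), *Mbd2* (-0.020, 48 h against 24 h in B-CKO cells), *Uhrf2* (-0.18, 48 h against 0 h in B-CKO cells) and *Dnmt3a* (-0.0089, the interaction from 24 h to 48 h). With median ratio scaling the log2 change turned sign for *Tdg* (0.012, 48 h against 24 h in control cells), *Uhrf2* (0.016, 48 h against 0 h in control cells) and *Dnmt3a* (-0.0093, the interaction from 24 h to 48 h). None of these had passed the threshold, and the cause was not tested. Leaving out 1 library turned the sign of 53 of 810 member values and of 1 other value. For B-CKO against control at 0 h the ranges were -0.054 to 0.17 for *Dnmt1*, -0.085 to 0.0031 for *Dnmt3a*, -0.23 to 0.071 for *Tet2*, -0.14 to 0.063 for *Tet3*, -0.38 to 0.15 for *Tdg* and -0.013 to 0.047 for *Mbd2*. For B-CKO against control at 24 h the ranges were -0.015 to 0.011 for *Tet1*, -0.094 to 0.0068 for *Tet2* and -0.022 to 0.028 for *Mbd2*. For B-CKO against control at 48 h the ranges were -0.18 to 0.0045 for *Dnmt1*, -0.028 to 0.044 for *Tdg* and -0.15 to 0.044 for *Hells*. For 24 h against 0 h in control cells the ranges were -0.0076 to 0.068 for *Dnmt3a*. For 48 h against 24 h in control cells the ranges were -0.046 to 0.085 for *Tet2* and -0.051 to 0.024 for *Tdg*. For 48 h against 0 h in control cells the ranges were -0.063 to 0.0073 for *Uhrf2*. For 48 h against 24 h in B-CKO cells the ranges were -0.15 to 0.035 for *Dnmt1*. For 48 h against 0 h in B-CKO cells the ranges were -0.096 to 0.13 for *Uhrf2*. For the interaction from 0 h to 24 h the ranges were -0.051 to 0.17 for *Dnmt1*, -0.18 to 0.030 for *Uhrf1*, -0.11 to 0.19 for *Tet2*, -0.13 to 0.069 for *Tet3*, -0.11 to 0.42 for *Tdg* and -0.047 to 0.021 for *Mbd2*. For the interaction from 24 h to 48 h the ranges were -0.061 to 0.054 for *Dnmt3a*, -0.19 to 0.010 for *Tet3* and -0.069 to 0.0065 for *Tdg*. For the interaction from 0 h to 48 h the ranges were -0.061 to 0.16 for *Uhrf2*, -0.27 to 0.035 for *Tet2* and -0.14 to 0.39 for *Tdg*. *Mbd2* from 24 h to 48 h in control cells had an adjusted p of 0.0512 with a pseudocount of 0.1, 0.06 with genes of at least 1 FPKM, 0.228 as TPM, 0.102 with the replicate block, 0.0898 with the block and genes of at least 1 FPKM and 0.101 in 1 fit of all 18 libraries, and its change was under the cutoff of the study. *Dnmt3a* passed the threshold from 0 h to 48 h in B-CKO cells as TPM (-0.43) and in 1 fit of all 18 libraries (-0.21), and *Tet1* from 24 h to 48 h in B-CKO cells with median ratio scaling (0.07). In that step of B-CKO cells *Tet1* and *Dnmt3a* each also passed it in 1 of the 6 fits that left out a library. *Dnmt1* and *Dnmt3a* from 24 h to 48 h in control cells passed it with the replicate block and genes of at least 1 FPKM. *Tet1* had no value with genes of at least 1 FPKM.

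Between genotypes at 24 h, 15 genes were called as reported, 388 with genes of at least 1 FPKM, 46 with a pseudocount of 0.1, 5 with the replicate block, 67 by the cutoff of the study, which uses unadjusted p, and 5 to 8 without 1 library. At 48 h, 7 were called (1 higher, 6 lower), 29 with genes of at least 1 FPKM, 3 with the replicate block, 116 with both, 89 by the cutoff of the study and 5 with median ratio scaling (0 higher, 5 lower), and 0 to 6 without 1 library. At 0 h, 0 were called (313 with an unadjusted p under 0.05), 2 with genes of at least 1 FPKM, 22 with the replicate block as well, 53 by the cutoff of the study and 23 in 1 fit of all 18 libraries. By that cutoff 0 members were counted at each time. For *Mbd2* in control cells from 24 h to 48 h the replicate block ended the call. It ended no other member's call. Replicate numbers paired samples between genotypes at 0 h and between 24 h and 48 h of B-CKO cells by their correlations, and in the other comparisons samples shared only a number. Depth is not known from FPKM, so no counting error is given.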

Other observations

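*Idh1*, whose enzyme makes the 2-oxoglutarate that TET enzymes use, averaged 12.1 ± 0.427 FPKM in the controls against 15.1 ± 0.216 FPKM in the B-CKO libraries at 48 h (SD, n = 3, log2 difference 0.30 ± 0.049, adjusted p = 0.167, limma), with no overlap, where 11.1% of all genes did not overlap. *Ung* averaged 56.1 ± 2.87 against 63.4 ± 2.39 FPKM at 24 h and 27.4 ± 1.87 against 27.6 ± 1.06 FPKM at 48 h. Both genes were singled out after their values were seen, and their differences are given as values without an explanation.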
